A study of Mus musculus with 5 samples.

Results

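In mouse embryonic stem cells, 6 regions named for maternally methylated imprinted genes were described, beside 659747 tiles of 4 kb and 527798 tiles of 5 kb over which the same measures were taken. The rule gives them by name and position and uses no read count, but the choice was made with earlier results of these data known. They lie in mm9 at chr6:30684001-30689000 (Mest), chr6:58855001-58859000 (Nap1l5), chr11:11924001-11928000 (Grb10), chr15:96883001-96887000 (Slc38a4), chr17:12933001-12937000 (Igf2r) and chr18:13129001-13134000 (Impact). Windows were 4 kb long, or 5 kb for Mest and Impact, and 10 kb on each side of a window served as its flanks. Where exons, introns and promoters of mm9 fall in these windows was not analysed here.

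Methylated and hydroxymethylated DNA had been profiled in 5 libraries, 1 per group. For 4 of them the source was clones of the E14 line from the SIGTR gene-trap library, at passages 11 to 14, kept off feeder cells in medium with LIF and 10% serum. These were DNA that a His6-GST-MBD fusion, the methyl-CpG binding domain, held in MethylCap and released at 600 mM NaCl (10462783 reads on chromosomes 1 to 19 and X), the 800 mM NaCl eluate (7507520 reads), MeDIP with an antibody to 5-methylcytosine, 5mC (10442811 reads), and hMeDIP with an antibody to 5-hydroxymethylcytosine, 5hmC (18519740 reads). The fifth, the input (18676265 reads), was unenriched DNA from chromatin of the TNG-A line, which derives from E14 and carries EGFP at the Nanog locus, so input and enriched DNA are of different lines. The labels do not say how many gene-trap clones were used or whether they were pooled.

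Every value below is therefore 1 library, with no replicate check and no p-value. Levels are RPM, reads scaled to library size on chromosomes 1 to 19 and X, a ratio is one library's RPM over another's, and each interval is an exact 95% interval that covers counting error only. Copy number of these regions in either line was not measured, and reads were not assigned to the maternal or paternal chromosome.

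Imprinted genes are expressed from 1 parental chromosome. At a maternal imprint, a CpG-rich differentially methylated region gains 5mC in the oocyte and keeps it on the maternal chromosome after fertilisation, while the paternal copy stays unmethylated. In embryonic stem cells this methylation is maintained with the help of ZFP57, a zinc finger protein that recognises a methylated TGCCGC hexamer, and its partner TRIM28. TET dioxygenases, which stem cells express, convert 5mC to 5hmC. MBD protein captures double-stranded DNA with clustered methylated CpGs and binds 5hmC poorly, whereas the antibodies read single-stranded DNA.

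To show what such start sites look like in letters, RefSeq promoters (GRCm38.p6, 250 bases before to 50 after the start) were taken for the member genes. Of the 6 genes, 5 had an entry, as did Airn, the noncoding RNA that starts inside Igf2r, and Impact had none. Their coordinates are of another build than the windows, so whether a given start lies in a window was not tested. One entry each of Mest and Nap1l5 is shown for its CpGs and hexamers, Slc38a4 as the gene whose window differed from the rest in the results, and Airn for comparison with it. Capitals mark every CG.

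Mest, chr6:30737800-30738099, plus strand: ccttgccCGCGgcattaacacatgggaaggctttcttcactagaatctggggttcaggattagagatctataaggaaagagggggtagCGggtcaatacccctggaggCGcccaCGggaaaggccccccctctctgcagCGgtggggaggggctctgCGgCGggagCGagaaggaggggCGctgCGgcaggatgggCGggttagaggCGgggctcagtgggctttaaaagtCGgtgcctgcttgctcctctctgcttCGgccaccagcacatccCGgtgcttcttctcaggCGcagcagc
Nap1l5, chr6:58907077-58907376, minus strand: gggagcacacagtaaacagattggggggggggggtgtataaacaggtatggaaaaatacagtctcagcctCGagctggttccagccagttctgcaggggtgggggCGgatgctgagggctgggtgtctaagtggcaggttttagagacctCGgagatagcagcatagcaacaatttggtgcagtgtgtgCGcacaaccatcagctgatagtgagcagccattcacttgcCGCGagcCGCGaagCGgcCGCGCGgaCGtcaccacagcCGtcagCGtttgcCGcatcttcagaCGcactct
Slc38a4, chr15:97055907-97056206, minus strand: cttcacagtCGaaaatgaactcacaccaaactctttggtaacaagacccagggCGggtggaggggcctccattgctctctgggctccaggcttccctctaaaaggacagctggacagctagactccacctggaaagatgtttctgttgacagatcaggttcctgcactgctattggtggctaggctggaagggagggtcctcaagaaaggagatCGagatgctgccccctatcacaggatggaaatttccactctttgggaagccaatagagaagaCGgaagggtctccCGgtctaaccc
Airn, chr17:12741061-12741360, plus strand: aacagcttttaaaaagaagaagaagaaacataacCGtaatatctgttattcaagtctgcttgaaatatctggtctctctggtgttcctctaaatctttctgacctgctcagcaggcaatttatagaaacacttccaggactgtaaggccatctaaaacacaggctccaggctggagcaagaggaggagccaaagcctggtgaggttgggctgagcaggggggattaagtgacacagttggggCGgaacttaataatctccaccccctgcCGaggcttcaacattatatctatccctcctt

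The Mest and Nap1l5 stretches each held 17 CpGs, against a median of 7 over 32851 promoters of this length. Mest has 3 entries. The one at chr6:30737803-30738102 also had 17 CpGs and 2 motif matches, and the one at chr6:30733256-30733555 had 8 CpGs and no motif match. The stretches shown for Mest and Nap1l5 each matched TGCCGC, or GCGGCA on the other strand, at 2 places (the motif overlapped no other motif searched). Of all promoters 1.53% held it at 2 or more places and 11.6% at least once. Both stretches were picked for their hexamers, and the promoters were not matched for CpGs, so these shares do not measure rarity. The Slc38a4 stretch had 5 CpGs and no match, and so had its other entries. Airn had 3 CpGs and no match, so a stretch with few CpGs was not particular to Slc38a4 among these entries. Whether CpG number at a start goes with MBD signal in a window was not tested. Entries of Igf2r (34 CpGs, no match) and Grb10 (45 CpGs with 1 match, and 9 with none) differed widely. A match describes these letters only.

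MBD capture enriched 5 of the 6 regions, and Slc38a4 was the exception. In the 600 mM eluate the window ratio to input was 16.0 to 16.7 at Mest, Nap1l5, Igf2r and Impact and 59.0 at Grb10. A ratio of 3 or more, the threshold used here, was reached by 5 of 6 members in each eluate. Of all tiles with at least 10 input reads, 8.89% (4 kb) and 8.46% (5 kb) passed it at 600 mM and 9.64% and 9.22% at 800 mM. With the 5mC antibody 3 of 6 passed (background 6.92% and 6.42%), and with the 5hmC antibody 0 of 6 (background 5.3% and 4.76%). The median over the 6 members was 16.4 at 600 mM, 5.17 at 800 mM, 3.23 in MeDIP and 1.31 in hMeDIP, where the medians over all 4 kb tiles were 0.571, 0.498, 0.734 and 0.762.

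**Figure D1:**
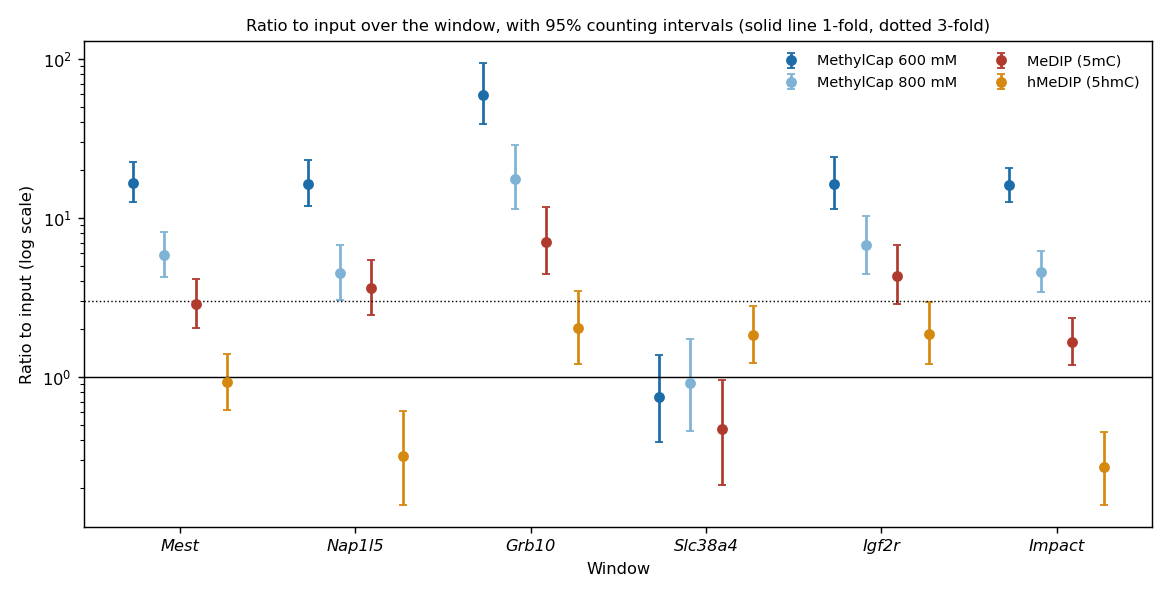
RPM over input RPM in the 6 windows for each of the 4 enriched libraries, on a log axis with exact 95% counting intervals. The windows of 5 members lie between 16.0 and 59.0 at 600 mM, Slc38a4 lies at 0.752, and the hMeDIP values lie between 0.273 and 2.02.

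Mest, also called Peg1, encodes a protein of the alpha/beta hydrolase fold and is expressed from the paternal chromosome. Its window held 504 reads at 600 mM, 127 at 800 mM, 87 in MeDIP, 50 in hMeDIP and 54 in input. The MBD eluates stood far above input and the 5hmC antibody did not: the ratios were 16.7 (12.6 to 22.5), 5.85 (4.22 to 8.20), 2.88 (2.03 to 4.12) and 0.934 (0.623 to 1.40). This was the only MBD-enriched member whose signal lay at an edge of its window, with the highest step 1.75 kb beyond the centre.

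Nap1l5 is an intronless gene of the nucleosome assembly protein family, inside an intron of Herc3, and is likewise paternally expressed. There were 377 reads at 600 mM, 74 at 800 mM, 83 in MeDIP, 13 in hMeDIP and 41 in input. Ratios to input were 16.4 (11.9 to 23.2), 4.49 (3.03 to 6.75), 3.62 (2.46 to 5.40) and 0.320 (0.157 to 0.609), so hMeDIP lay below input here while the 5mC antibody lay above it.

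Grb10 encodes an adaptor that restrains signalling from insulin and IGF1 receptors, and its expressed parental copy depends on the tissue. The window held 760 reads at 600 mM, 163 at 800 mM, 91 in MeDIP, 46 in hMeDIP and 23 in input. It was the highest member in all 3 readouts of 5mC, with ratios of 59.0 (39.0 to 93.6), 17.6 (11.4 to 28.6) and 7.08 (4.44 to 11.7). It also had the fewest input reads of the 6 windows, which raises each of its ratios to input, and the hMeDIP ratio was 2.02 (1.20 to 3.49). Without the input, its 600 mM level was still the highest, at 18.2 RPM per kb against 7.24 to 12.7 at the other MBD-enriched members.

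Igf2r encodes the receptor that takes up and degrades IGF2. It is expressed from the maternal chromosome, and its known imprint lies in an intron at the start of Airn, the noncoding RNA that silences the paternal copy. Counts were 303 at 600 mM, 89 at 800 mM, 80 in MeDIP, 61 in hMeDIP and 33 in input. All 4 libraries exceeded input, by 16.4-fold (11.4 to 24.2), 6.71-fold (4.45 to 10.3), 4.34-fold (2.86 to 6.72) and 1.86-fold (1.20 to 2.94).

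Impact encodes a regulator of GCN2, the kinase that slows translation when amino acids are scarce, and is paternally expressed. Its window gave 664 reads at 600 mM, 136 at 800 mM, 69 in MeDIP, 20 in hMeDIP and 74 in input. The 600 mM ratio of 16.0 (12.6 to 20.7) was close to those of Mest, Nap1l5 and Igf2r, but MeDIP reached only 1.67 (1.18 to 2.35). The hMeDIP ratio was the lowest of the 6 windows, at 0.273 (0.157 to 0.452), and the 800 mM ratio was 4.57 (3.42 to 6.15). By counting error, the 600 mM ratios of Mest, Nap1l5, Igf2r and Impact could not be ordered, whereas the interval of Grb10 lay above all others.

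Slc38a4 encodes a transporter of neutral amino acids that is paternally expressed in some tissues. The window held 16 reads at 600 mM, 14 at 800 mM, 10 in MeDIP, 69 in hMeDIP and 38 in input. Neither eluate exceeded input (0.752, interval 0.391 to 1.38, and 0.917, interval 0.459 to 1.73), MeDIP was below it at 0.471 (0.209 to 0.963), and hMeDIP was above it at 1.83 (1.22 to 2.80). The window thus showed no 5mC signal over input in these libraries and is called by its gene only. The intervals of both eluates and of MeDIP each included the library's median over all 4 kb tiles. Those medians were 0.571 at 600 mM, 0.498 at 800 mM and 0.734 in MeDIP. By point value the eluates lay above their medians and MeDIP below. Whether the imprint known for this gene lies in this mm9 window was not checked, so the values speak for the window alone. No 500 bp step of it held more than 5 reads at 600 mM. hMeDIP was also above input in its flanks (1.39, interval 1.19 to 1.63), so its 5hmC antibody signal was not limited to the window.

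The flanks gave the same picture without a genome-wide scale. Relative to its own flanks and to the input, the 600 mM window signal was 85.9-fold (50.7 to 148.1) higher at Grb10, 33.2-fold (22.4 to 49.1) at Impact, 19.2-fold (12.4 to 29.8) at Nap1l5, 12.1-fold (8.36 to 17.5) at Mest and 11.4-fold (7.34 to 17.9) at Igf2r. At 3-fold or more by this measure were 5 of 6 members at 600 mM (background 7.94% of 4 kb and 7.59% of 5 kb tiles), 4 at 800 mM (9.59% and 9.31%), 3 in MeDIP (5.26% and 4.67%) and 0 in hMeDIP (4.4% and 3.76%). Mest missed it at 800 mM, at 1.93-fold, and its downstream flank held a dense stretch of 800 mM reads.

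**Figure D2:**
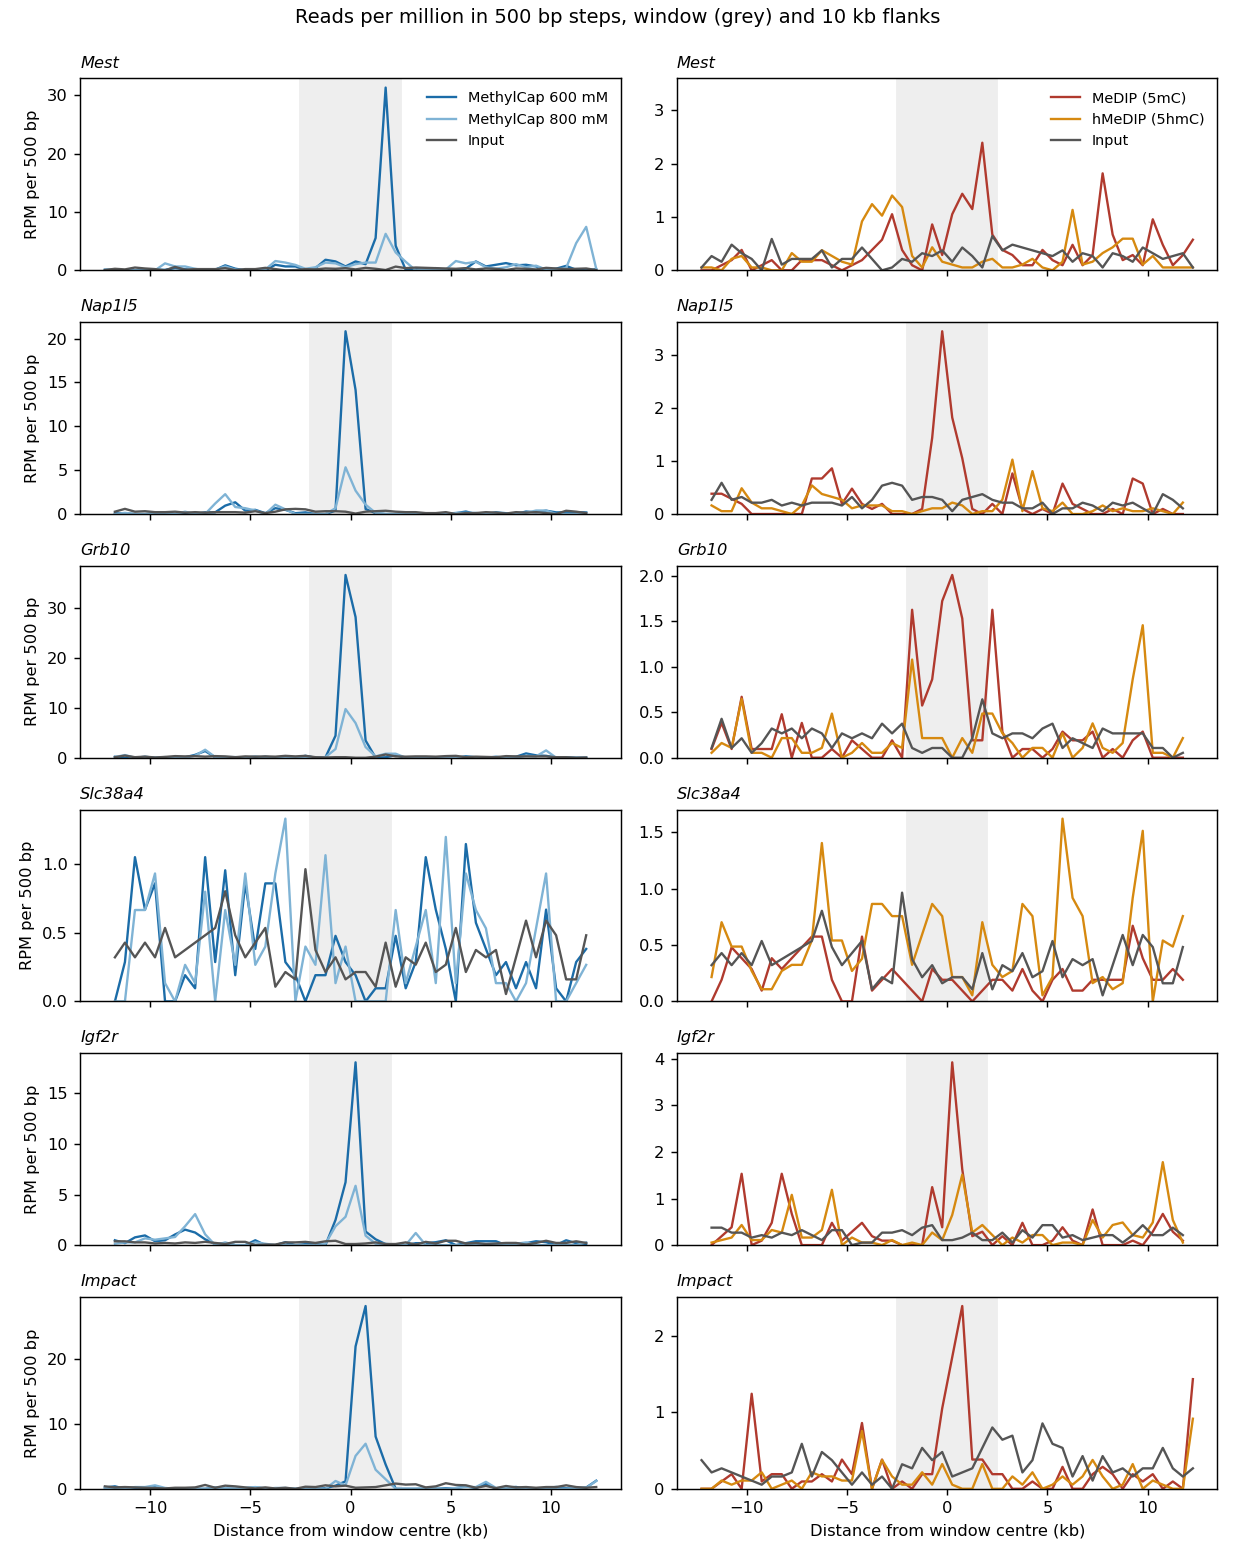
RPM per 500 bp step along each window and its 10 kb flanks, by distance from the window's centre in kb, with the MethylCap eluates and input on the left, both antibodies and input on the right, and a vertical scale of its own in each panel. The 600 mM eluate makes 1 narrow peak at each member except Slc38a4, and hMeDIP is below MeDIP in the peak step of each of these 5.

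The MBD signal of the 5 enriched members was narrow. The middle 80% of 600 mM reads, from the 10th to the 90th percentile, spanned 496.2 bp at Nap1l5, 851.8 bp at Grb10, 900.4 bp at Igf2r, 1226.2 bp at Impact and 1854.8 bp at Mest. The highest step at Grb10 held 382 reads at 600 mM, 73 at 800 mM, 18 in MeDIP, 4 in hMeDIP and 2 in input. At Mest it held 328, 47, 25, 3 and 1 reads in the same order. Within the windows, both eluates and MeDIP peaked in the same step at 4 of these 5 members. With flanks included it was 3, since the 800 mM maximum at Mest, 56 reads, lay 10 kb from the 600 mM peak. At Grb10 the MeDIP maximum, 21 reads, lay in the adjacent step, where hMeDIP and input had no read.

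The core of each region, its highest 600 mM step with 1 step on each side (1.5 kb, defined after the counts were seen), held 85.3% (Mest) to 98.1% (Nap1l5) of the window's 600 mM reads at these 5 members. In the cores MeDIP exceeded input at all 5. The ratios were 4.37 (2.47 to 8.04) at Mest, 7.0 (3.66 to 14.5) at Impact and 10.4 (5.61 to 21.1) at Nap1l5. At Igf2r and Grb10, with 7 and 4 input reads, they were 15.8 (7.25 to 41.0) and 21.5 (7.86 to 82.0). These intervals overlapped, so the cores could not be ordered. At Impact 68.1% of the window's MeDIP reads lay in the core. At Mest 50.6% did, a smaller share than the 85.3% of its 600 mM reads. Outside the core the Mest window was still over input in both, at 2.14-fold (1.34 to 3.42) in MeDIP and 3.67-fold (2.43 to 5.63) at 600 mM.

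To compare the marks directly, hMeDIP was set over MeDIP, which leaves the input of the other line out. The 5hmC antibody was at least 2-fold lower than the 5mC antibody at 5 of 6 members, as were 11.9% of 4 kb and 10.2% of 5 kb tiles. Among tiles at 3-fold or more over input at 600 mM, which resemble these members more, the share was 23% and 21.1%, and at 10-fold or more it was 31.4% and 30.1%. The ratios were 0.0883 (0.0451 to 0.159) at Nap1l5, 0.163 (0.0941 to 0.272) at Impact, 0.285 (0.195 to 0.411) at Grb10, 0.324 (0.224 to 0.464) at Mest and 0.430 (0.303 to 0.608) at Igf2r. Slc38a4 went the other way, at 3.89 (1.99 to 8.47), as did 15.5% of 4 kb and 13.3% of 5 kb tiles by 2-fold or more. Its flanks were at 2.14 (1.71 to 2.68), and the window over its flanks gave 1.82 (0.892 to 4.11), an interval that includes no difference.

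The antibodies differed more in the windows than in the flanks. Summed over the 5 MBD-enriched members, hMeDIP held 190 reads and MeDIP 410 in the windows, a ratio of 0.261 (0.219 to 0.311), against 0.964 (0.858 to 1.08) in the flanks. Single flanks went either way: hMeDIP over MeDIP was 0.585 (0.426 to 0.802) downstream of Mest and 0.652 (0.429 to 0.994) upstream of Impact, but 1.75 (1.22 to 2.55) upstream of Mest and 1.69 (1.15 to 2.54) downstream of Igf2r. In the cores there were 67 hMeDIP and 271 MeDIP reads, a ratio of 0.139 (0.105 to 0.183). Cores were placed, and the 5 members picked, by the 600 mM eluate, which enters neither side of this ratio. Like MeDIP, that eluate is a readout of 5mC, so the choice favours high MeDIP and a low ratio. Igf2r supplied 42 of these 67 hMeDIP reads, and without it the core ratio was 0.0674 (0.0427 to 0.102). Against input the summed cores were at 9.14 (6.79 to 12.5) in MeDIP. In hMeDIP they were at 1.27 (0.876 to 1.86), a value that turned on single members: it was 0.548 (0.323 to 0.911) without Igf2r and 1.70 (1.10 to 2.66) without Mest. Depletion of 5hmC below the genome's background was not shown for the summed cores. The windows of Nap1l5, at 0.320 (0.157 to 0.609), and Impact, at 0.273 (0.157 to 0.452), lay below the 4 kb tile median of 0.762. Those of Mest, Grb10, Igf2r and Slc38a4 were above it. Whether the low values are depletion was not tested.

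**Figure D3:**
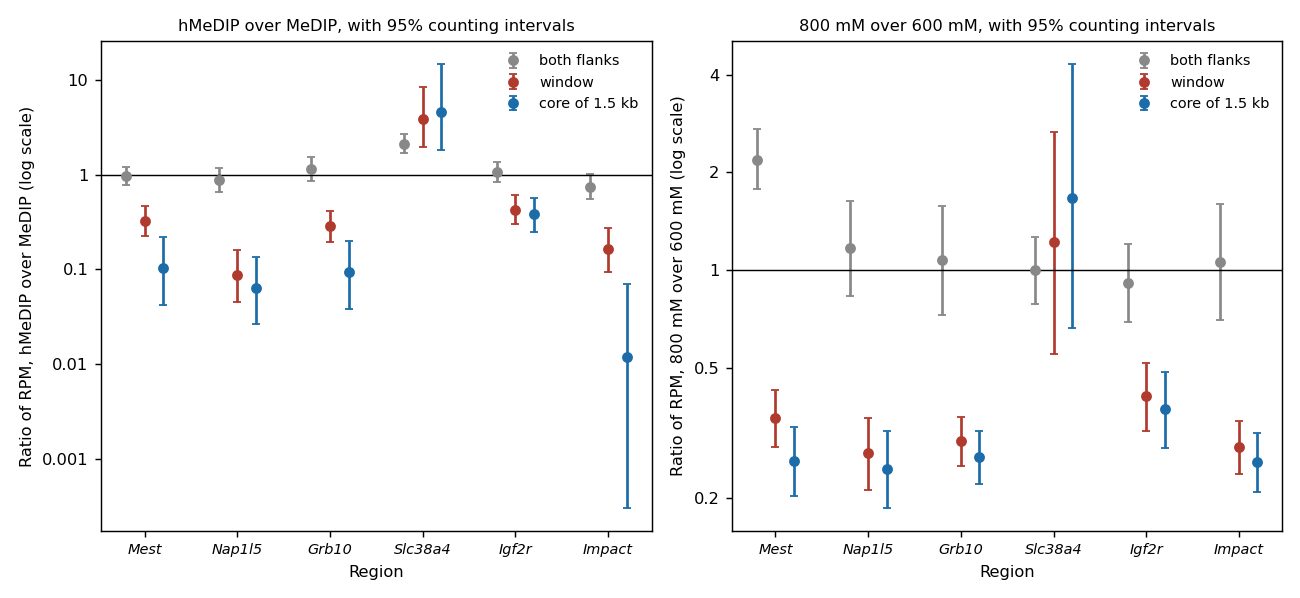
hMeDIP over MeDIP (left) and 800 mM over 600 mM (right) in the flanks, window and 1.5 kb core of each region, on log axes with exact 95% counting intervals. At 5 members both ratios are at least 0.749 in the flanks and below 0.5 in the window and core, and Slc38a4 differs from them. These 5 members and the cores were picked by 600 mM reads, the denominator on the right.

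Single cores differed in how little 5hmC antibody signal they held. The Impact core had 1 hMeDIP against 47 MeDIP reads, a ratio of 0.0120 (0.000297 to 0.0702). Its highest step had 0 against 25 reads, a ratio of 0 (0 to 0.0897). With the absent reads set to 3 that is 14.8-fold lower, counting error in the 25 left out. Nap1l5 had 8 against 70 reads (0.0644, interval 0.0268 to 0.134), Grb10 8 against 48 (0.0940, interval 0.0384 to 0.200) and Mest 8 against 44 (0.103, interval 0.0417 to 0.220). Igf2r stood apart with 42 against 62 reads, a ratio of 0.382 (0.252 to 0.574) whose interval lay above those of the other 4. Its core was also 6.05-fold (2.69 to 16.0) over input in hMeDIP. There Impact was at 0.0840 (0.00197 to 0.568), Mest at 0.448 (0.169 to 1.08) and Nap1l5 at 0.672 (0.238 to 1.79). Grb10 was at 2.02 (0.540 to 9.15), an interval that overlaps that of Igf2r.

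At Igf2r the antibodies peaked side by side. In the step of the highest MBD signal, chr17:12935001-12935500, there were 189 reads at 600 mM, 41 in MeDIP and 12 in hMeDIP. In the next step, chr17:12935501-12936000, there were 14, 17 and 28. The 5hmC antibody maximum of this window thus lay 500 bp from the MBD maximum, on one side only: the step on the other side held 65, 4 and 2 reads. Reads were placed by unshifted midpoints, and the core's hMeDIP reads were uneven between strands, with 13 plus and 29 minus. Whether the offset depends on strand was not tested.

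By distance from the core step, the summed hMeDIP over MeDIP ratio of the 5 members was lower near the core step than several kb away. It was 0.0817 (0.0491 to 0.130) in the core step, or 0.0488 (0.0217 to 0.0963) without Igf2r. At 0.5 kb it was 0.206 (0.144 to 0.291), where Igf2r gave 30 of 46 hMeDIP reads, and 0.0859 (0.0474 to 0.146) without it. The single ratios at 0.5 kb were 0.806 at Igf2r, 0.148 at Mest, 0.0995 at Nap1l5, 0.0752 at Grb10, which was below its own core step, and 0.0256 at Impact. The summed ratio was 0.404 (0.308 to 0.529) at 1 to 2 kb and 1.09 (0.881 to 1.35) at 2.5 to 5 kb. Beyond that, at 5.5 to 8 kb, it was 1.10 (0.895 to 1.36), so in the sum the difference between the antibodies was not seen beyond a few kb. Single members at 2.5 to 5 kb were less uniform, from 0.536 at Igf2r and 0.627 at Grb10 to 1.19 at Impact, 1.40 at Mest and 1.41 at Nap1l5. Over input, summed hMeDIP was lowest at 1 to 2 kb, at 0.489 (0.379 to 0.627). It was 0.328 there without Grb10 and 0.590 without Impact. These 30 steps held 96 hMeDIP and 198 input reads, and the 5 core steps 21 and 14. Input was thus sparser per step at the core, which raises ratios to input there.

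**Figure D4:**
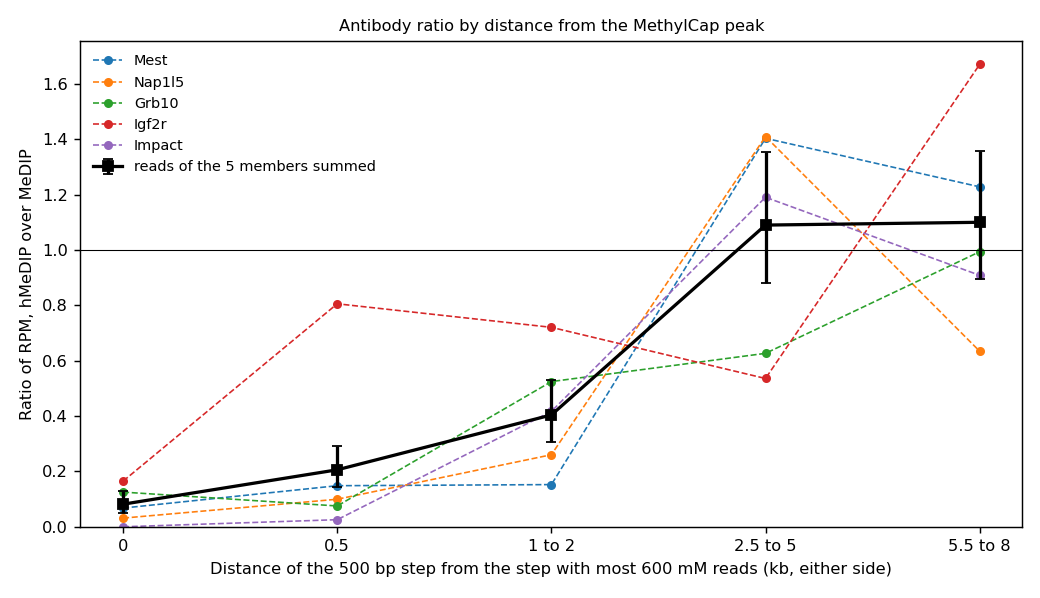
Ratio of hMeDIP to MeDIP RPM (vertical, linear) by distance class from the highest 600 mM step, in kb on either side, for the 5 members with an MBD peak (dashed, no error shown) and for their summed reads (black, exact 95% counting intervals). The summed hMeDIP over MeDIP ratio goes from 0.0817 at the peak to 1.09 at 2.5 to 5 kb.

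All 500 bp steps with at least 100 reads at 600 mM, the members' own included, gave a background for the members' highest steps. Those held 189 (Igf2r) to 382 (Grb10) reads, so the class also takes in weaker steps. Of the 783 steps in the genome with at least 100 reads at 600 mM, the median hMeDIP over MeDIP ratio was 0.490, and 50.8% were at 0.5 or below. The members' highest steps had 0.0677 at Mest, 0.0313 at Nap1l5, 0.125 at Grb10, 0.165 at Igf2r and 0 at Impact, all below that median.

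The salt steps also differed. At 800 mM the windows of 5 members were at least 2-fold below 600 mM, as were 21.2% of 4 kb and 18.7% of 5 kb tiles. Among tiles at 3-fold or more over input at 600 mM the share was 4.27% and 3.53%, and at 10-fold or more 16.8% and 17%; these classes were chosen by their 600 mM reads. Ratios of 800 mM to 600 mM were 0.274 (0.210 to 0.352) at Nap1l5, 0.285 (0.236 to 0.344) at Impact, 0.299 (0.251 to 0.354) at Grb10, 0.351 (0.287 to 0.427) at Mest and 0.409 (0.319 to 0.520) at Igf2r. At Slc38a4, with 14 and 16 reads, the ratio of 1.22 had an interval of 0.551 to 2.67. Summed over the 5 members the ratio was 0.315 (0.287 to 0.344) in windows and 1.38 (1.21 to 1.57) in flanks, where Mest gave 231 of 484 reads at 800 mM. Without Mest the flank ratio was 1.03 (0.873 to 1.22). Among the 783 steps with at least 100 reads at 600 mM, the median ratio was 0.348, and 82.5% were at 0.5 or below. These steps, the 5 summed members and the cores were also picked by 600 mM reads. Those reads are the denominator here, so the choice favours a low ratio.

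Around Mest, 2 stretches outside the peak behaved unlike it (chosen after their counts were seen, and so described only). Upstream, chr6:30682001-30684500 held 107 hMeDIP reads against 27 in MeDIP, 25 at 600 mM, 32 at 800 mM and 17 in input. That is 2.23-fold (1.45 to 3.55) more in hMeDIP than in MeDIP and 6.35-fold (3.78 to 11.3) over input, about 4 kb from a peak where hMeDIP had 3 reads. Downstream, chr6:30697501-30698500 held 91 reads at 800 mM but 1 at 600 mM, 4 in MeDIP, 2 in hMeDIP and 11 in input. With this stretch included, the Mest flanks had an 800 mM over 600 mM ratio of 2.19 (1.77 to 2.71), where those of the other members were 0.916 to 1.17. In its second step 56 reads stood against none, 26.0-fold more at 800 mM with the absent reads set to 3 and counting error in the 56 left out.

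Tiles of 4 kb were ranked by how near their 4 ratios to input came to the members' medians (Euclidean distance on the log2 scale, at least 20 input reads). The nearest was chr3:65916001-65920000, at a distance of 0.377, with ratios of 13.0 at 600 mM, 4.66 at 800 mM, 3.43 in MeDIP and 1.34 in hMeDIP. Next came chr7:30576001-30580000 at 0.442, with 16.7, 6.83, 2.89 and 1.39. Genes at these mm9 positions were not identified here.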

How the data were processed

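Per the submitters' processing notes, reads were aligned to mm9 with BWA 0.5.8. The deposited files list 1 aligned read per line with a read count of 1, and duplicates had been reduced, which caps dense signals. Deposited column 4 holds 0 or 1, with its meaning not given in the sources used here; all reads were used. The 5 libraries, 1 per group, held 7507520 to 18676265 reads on chromosomes 1 to 19 and X.

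Each read was placed by its midpoint and counts were scaled to RPM over chromosomes 1 to 19 and X (Python 3.11.15, numpy 2.4.6, pandas 2.3.3). Intervals are exact Clopper-Pearson intervals of the conditional binomial (scipy 1.17.1), and those of a window over its flanks are exact conditional odds ratios. Thresholds were 3-fold over input and 2-fold between pulldowns. The scripts were tested on simulated data. Background tiles did not overlap each other and held at least 10 input reads. No model across replicates could be fitted.

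Members, windows and thresholds were chosen with earlier results of these data known. All 6 members are named, with the 5 tiles nearest to their median pattern ranked and the first described. Cores, dense steps, distance classes and the Mest stretches were chosen after their values were seen. Motifs were searched on both strands. Alternatives were other windows, thresholds, a median scaling, read shifts, a pseudocount of 0.5 RPM leaving out reads by column 4 and, chosen after seeing the data, leaving out each member from summed ratios.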

Additional observations from a re-analysis of the deposited data

How the results depend on the processing

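Of 124 counts of members recomputed under an alternative, 114 stayed within 1.5 times the count reported. Of 384 values of single members, 316 stayed within their limit, 68 moved further and 0 reversed. Only a ratio at or past its fold threshold could count as reversed. A ratio near 1 that changed sides, like that of Mest hMeDIP below, did not. The limit was the counting interval for a ratio and 500 bp for the position of a highest step. Of 60 such positions, 58 stayed. The cause of the moves was not tested beyond the setting named. The 5 members at 3-fold or more over input at 800 mM became 3 at a 5-fold threshold. The 3 in MeDIP became 1 at 5-fold, 1 with windows widened by 1 kb on each side and 5 in the cores. The 0 in hMeDIP became 1 at a 2-fold threshold, 2 with windows narrowed by 1 kb (Grb10 at 3.03, Igf2r at 3.16) and 2 in the cores (Igf2r and Slc38a4). The 5 members lower at 800 mM than at 600 mM became 3 at a 3-fold threshold. Relative to flanks, the MeDIP count went from 3 to 1 in widened windows and the hMeDIP count from 0 to 1 in narrowed ones. Setting the tile median to 1 divides ratios to input by 0.571 (600 mM), 0.498 (800 mM), 0.734 (MeDIP) and 0.762 (hMeDIP), and put Mest hMeDIP at 1.22 in place of 0.934. No paired analysis was possible because each group had 1 library. The cores of Mest, Nap1l5, Grb10 and Impact held 8 or fewer hMeDIP reads each, so their ratios have wide intervals.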

Other observations

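The antibody libraries were uneven between strands at some members, where MethylCap was not. Of the 46 hMeDIP reads in the Grb10 window, 41 were on the plus strand (89.1%, exact 95% interval 76.4 to 96.4), as were 71.4% (61 to 80.4) of its MeDIP reads. In the Igf2r core 25.8% (15.5 to 38.5) of MeDIP reads were on the plus strand, and in the Nap1l5 core 68.6% (56.4 to 79.1). Across 4 kb tiles with at least 40 reads of a library, the interval excluded 50% in 53.4% of tiles in MeDIP and 49.9% in hMeDIP. The share was 3.55% at 600 mM, 2.54% at 800 mM and 2.74% in input, so uneven strands were common in the antibody libraries. A plus share under 30% or over 70% was seen in 36.7% of MeDIP and 30.1% of hMeDIP tiles. How many tiles were as uneven as Grb10 in hMeDIP was not counted.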
